A study of Mus musculus with 24 samples.

Results

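The comparison described here set neonatal mouse microglia exposed to interferon alpha (IFNa) for 6 h against cultures of the same kind that received no cytokine. It covers 6 of the 24 bulk RNA-seq libraries of the series, 3 IFNa and 3 unstimulated, chosen from their labels alone. The fit behind the p-values used all 18 neonatal libraries. Microglia, the resident macrophages of the brain, were obtained from neonatal MRL/lpr mice by enzymatic digestion of brain tissue and magnetic selection of CD11b-positive cells, and were cultured for 48 h before stimulation. Every neonatal library, the controls included, came from MRL/lpr mice, a lupus-prone strain carrying the lpr mutation of the death receptor gene Fas. Both groups thus shared the strain, and whether microglia of another strain respond alike was not tested. The neonatal experiment also holds 3 libraries each of interferon gamma (IFNg), IL6, TNFa and a mixture of all 4 cytokines, each given for 6 h, and the series further holds adult microglia of 16 weeks (3 MRL/lpr and 3 MRL/MpJ libraries) that were not compared here. The labels give neither the cytokine doses nor what a shared replicate number stands for, and they do not say whether replicates came from separate animals or cultures. The p-values below therefore measure the spread between the 18 neonatal libraries, which may be technical.

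Type I interferons such as IFNa bind a receptor made of the chains Ifnar1 and Ifnar2, which activates the kinases Jak1 and Tyk2. These phosphorylate STAT factors, among them Stat2, which join Irf9 in the complex ISGF3, and ISGF3 binds a DNA element called the interferon-stimulated response element (ISRE) in the promoters of antiviral genes. IFNg, the type II interferon, acts through another receptor and mainly through STAT dimers, which bind the gamma-activated site (GAS). In microglia, as in other macrophages, interferons are known for inducing antiviral proteins, chemokines and antigen presentation genes, and a lasting interferon signature is a known feature of lupus.

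The unstimulated libraries held 12589181, 15408841 and 17392820 counts and the IFNa libraries 16018587, 15780724 and 14487325, within the range of 10084927 to 19316994 over the series. Levels below are CPM, the counts of a gene relative to its library's total count, with the totals adjusted by edgeR's trimmed mean of M-values (TMM), and where 3 values follow each other they stand for replicates 1, 2 and 3 in that order. Macrophage and microglial genes were high in all 6 libraries: Csf1r ranged from 1571 to 2623 CPM and Cx3cr1 from 235 to 977. Tmem119 and P2ry12, which mark microglia of the adult brain, were low at 5.51 to 7.24 and 15.6 to 26.2 CPM in the unstimulated libraries. Genes used as border macrophage markers summed to between 1617 and 1984 CPM there and to between 1240 and 1416 CPM with IFNa, without overlap. Most of this sum was Stab1 in both groups, and its own fall is given below. Of the 10 markers tested, 3 fell, 0 rose and 7 were not called (median log2 fold change -0.34). Over all genes tested 11.07% fell and 14.31% rose. Whether microglia or other brain macrophages held this RNA was not tested. The replicate number was a block in the fit, as fixed beforehand in the definition of the comparison. Libraries with the same replicate number deviated together in every neonatal group (r over 0.1 in 45 of 45 pairs, 0.184 to 0.687). The highest r of a differently numbered pair was 0.223, above the lowest of the same-numbered pairs.

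Of 14626 genes tested, 3712 (25.38%) differed between IFNa and unstimulated microglia at an adjusted p below 0.05 (edgeR's quasi-likelihood test with Benjamini-Hochberg adjustment over all genes tested, 3 libraries per group). Such genes are called changed below, 2093 higher with IFNa (14.31% of genes tested) and 1619 lower (11.07%). Counts per gene list below are to be read against these shares. The changes upward were larger: 429 genes rose and 48 fell by at least 4-fold, and 224 rose and 9 fell by at least 8-fold. In 3026 of the 3712 called genes the 3 IFNa libraries did not overlap the 3 unstimulated ones. Over all genes tested, whatever their call, all 3 IFNa libraries lay above all 3 unstimulated in 2297 (15.7%) and below in 2106 (14.4%). Without the replicate block 1377 genes rose and 741 fell, and without replicate 1 in every neonatal group, a setting chosen after seeing the data, 1423 rose and 810 fell. Without IFNa replicate 1 alone 1072 fell. Scaled by total counts alone, the median of all genes moved from -0.0351 to -0.208 on the log2 scale and the split became 1620 higher and 3091 lower, or 34.4% of called genes higher in place of 56.4%.

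**Figure D1:**
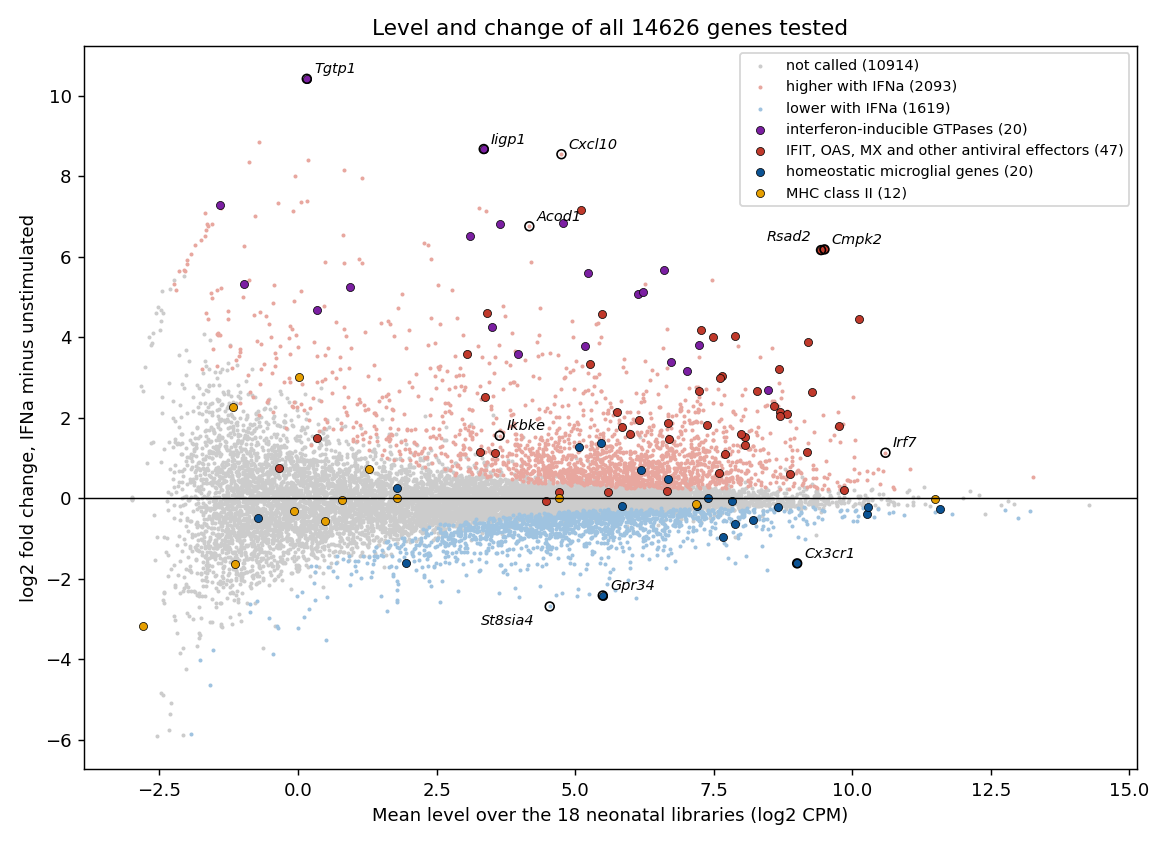
Each point is 1 of the 14626 genes tested. The x axis gives its mean level over the IFNa and unstimulated libraries (log2 CPM), although the printed axis label names the 18 neonatal libraries. The y axis gives its log2 fold change, IFNa minus unstimulated. Interferon-inducible GTPases and antiviral effectors lie mostly far above 0, MHC class II genes lie on both sides of 0 over a wide range of levels, and the homeostatic genes Gpr34 and Cx3cr1 lie below 0.

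Of 16 listed genes of the receptor, the JAK-STAT kinases and factors, and their feedback inhibitors, 9 rose and 1 fell (median log2 fold change 0.75), against 14.31% and 11.07% and a median of -0.04 over all genes tested. The receptor chain Ifnar1 was measured at 167, 189.9 and 172 CPM in unstimulated and 92.0, 102 and 100.2 CPM in IFNa libraries. It fell by 0.84 ± 0.12 (SE) on the log2 scale with no overlap between the groups (adjusted p = 3.72e-05), whereas Ifnar2 gave a log2 fold change of -0.01 ± 0.10 (adjusted p = 0.952). As this is bulk RNA, fewer cells of a type and less RNA per cell cannot be told apart for this or any later gene. Tyk2, the kinase bound to Ifnar1, rose from 56.4, 67.2 and 83.8 to 157, 189 and 256 CPM (log2 fold change 1.53 ± 0.09, adjusted p = 1.33e-09). Of the ISGF3 subunits, Stat2 rose from 177, 193 and 406 to 779, 911 and 1084 CPM (log2 fold change 1.93 ± 0.19, adjusted p = 2.64e-06), while Irf9 did not pass the test at 0.34 ± 0.14 (adjusted p = 0.0764).

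Feedback inhibitors were among the genes that rose. Usp18, which removes ISG15 from proteins and blocks the receptor complex, went from 49.4, 56.2 and 120.4 CPM to 964, 1078 and 616 CPM (log2 fold change 3.78 ± 0.52, adjusted p = 0.000265). Socs1, an inhibitor of JAK kinases, went from 2.32, 1.87 and 2.03 CPM to 41.2, 52.8 and 10.1 CPM (log2 fold change 4.05 ± 0.80, adjusted p = 0.00321). IFNa replicate 3 held the lowest level of the 3 for both genes, and no IFNa library overlapped the controls. The Socs1 value fell to 3.34 without IFNa replicate 2, and its call was lost with limma-voom (adjusted p = 0.139) and without replicate 1 in every group (adjusted p = 0.0926). The inhibitor Socs3 did not pass the test (1.33 ± 0.59, adjusted p = 0.136), with 7.49, 0.845 and 2.08 CPM in unstimulated and 11.9, 9.85 and 3.82 CPM in IFNa libraries, which overlapped.

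Among 16 interferon regulatory factors and their chromatin partners, 12 rose and 0 fell (median log2 fold change 1.81). Irf7, which amplifies type I interferon production, was measured at 636, 809 and 2321 CPM in unstimulated and 1952, 2206 and 2772 CPM in IFNa libraries. Unstimulated replicate 3 lay above IFNa replicates 1 and 2, so the groups overlapped even though the blocked fit called the gene (log2 fold change 1.13 ± 0.25, adjusted p = 0.00504). Nlrc5, the transactivator of MHC class I genes, went from 7.29, 5.43 and 18.5 to 168, 208 and 188 CPM without overlap and had the largest change of the list at 4.34 ± 0.35 (adjusted p = 2.36e-06). Batf2 (3.51 ± 0.51, adjusted p = 0.000313) and the nuclear body gene Sp140 (2.66 ± 0.28, adjusted p = 8.78e-06) followed it. Irf1, Irf2 and Irf5 also rose, by 2.26 ± 0.38, 1.24 ± 0.14 and 1.30 ± 0.10 on the log2 scale. Irf3, Irf4, Irf8 and Batf3 did not pass the test.

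Of 48 listed antiviral effectors 47 were tested, and 40 rose and 0 fell (median log2 fold change 2.04). Their summed level went from between 4135 and 9542 CPM in unstimulated libraries to between 33990 and 44880 CPM with IFNa. Rsad2, or viperin, which makes a chain-terminating nucleotide, stood at 45.8, 53.2 and 265 CPM in unstimulated and 5654, 7433 and 4082 CPM in IFNa libraries (log2 fold change 6.17 ± 0.80, adjusted p = 0.000189). Cmpk2, its neighbour on chromosome 12 and a nucleotide kinase, stood at 52.4, 66.7 and 214 and 6238, 8062 and 3813 CPM (log2 fold change 6.19 ± 0.81, adjusted p = 0.00019). In both genes unstimulated replicate 3 was the highest control and IFNa replicate 3 the lowest treated library, and the groups stayed well apart. Ifit1bl1, of the IFIT family that binds viral RNA, was measured at 1.36, 1.51 and 10.9 CPM without and 398, 491 and 332 CPM with IFNa (log2 fold change 7.18 ± 1.02, adjusted p = 0.00035, and 7.90 without IFNa replicate 3). Ifit1, Ifit2, Ifit3 and Ifit3b rose by between 3.88 and 4.45 on the log2 scale, although IFIT genes resemble each other and reads could be split between copies. The exonuclease Isg20 (4.57 ± 0.38, adjusted p = 3.26e-06), Trim30d (4.61 ± 0.79, adjusted p = 0.00122, and 5.98 without unstimulated replicate 3) and Mx1 (4.17 ± 0.37, adjusted p = 7.5e-06) rose as well. Fitted on these 6 libraries alone, Rsad2, Cmpk2 and Trim30d kept their size but missed the threshold (adjusted p = 0.0638, 0.0514 and 0.0753).

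The 2′-5′ oligoadenylate synthetases, which sense double-stranded RNA, also rose: Oas1a from 107, 139 and 266 to 407, 451 and 511 CPM and Oas2 from 29.2, 31.9 and 52.3 to 122.5, 164 and 134 CPM. Their log2 fold changes were 1.53 ± 0.15 (adjusted p = 8.88e-07) and 1.95 ± 0.16 (adjusted p = 7.91e-08), with no overlap. Neither Ifi27 nor Ifi27l2a passed the test, and of the interferon-induced membrane proteins Ifitm3 rose by 1.16 ± 0.21 (adjusted p = 0.000874) while Ifitm1, Ifitm2 and Ifitm6 were not called. Apobec1 did not pass either. Trim5, with 4 reads over the 6 libraries, was left out by the filter on low counts.

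All 4 genes of ISG15 conjugation, the attachment of a ubiquitin-like protein to targets, rose (median log2 fold change 2.84). Isg15 itself was measured at 66.1, 75.2 and 186 CPM in unstimulated and 1043, 1138 and 1068 CPM in IFNa libraries. The 3 IFNa values lay close together while unstimulated replicate 3 was over both other controls (log2 fold change 3.51 ± 0.35, adjusted p = 1.58e-05). Herc6, the ligase, rose by 3.42 ± 0.43, the activating enzyme Uba7 by 2.27 ± 0.13 and the conjugating enzyme Ube2l6 by 1.57 ± 0.15. All 14 PARP, Dtx3l and Schlafen genes rose too (median 2.28), among them Slfn1 (3.23 ± 0.59, adjusted p = 0.00174), Slfn4 (3.03 ± 0.63, adjusted p = 0.00332) and Slfn8 (3.00 ± 0.33, adjusted p = 1.34e-05). Slfn1 stood at 5.55, 4.22 and 34.9 CPM without and 60.5, 77.3 and 138 CPM with IFNa, and its call was lost without the replicate block (adjusted p = 0.185). Slfn4 gave 4.05 without unstimulated replicate 1. Schlafen genes are close copies of each other, and Dtx3l and Parp9 overlap on opposite strands of chromosome 16, so their reads could have been shared.

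Promoters of members that rose together are shown here from RefSeq (GRCm38.p6, the assembly also called mm10), as the 250 bases before the annotated start, 5′ to 3′ on the gene's strand. Capitals mark ISRE-like matches, searched as TTTC, any 2 bases and TTTC again, on either strand; overlapping matches form a longer run of capitals. The genes stand for an antiviral effector (Rsad2), an IFIT gene (Ifit1), ISG15, a feedback inhibitor (Socs1), a GTPase (Tgtp2), a chemokine (Cxcl10) and Ikbke, and were chosen after their values and matches were known. Windows lie at chr12:26456453-26456702 (minus strand, Rsad2), chr19:34640639-34640888 (plus, Ifit1), chr4:156200819-156201068 (minus, Isg15), chr16:10785537-10785786 (minus, Socs1), chr11:49064213-49064462 (minus, Tgtp2), chr5:92348890-92349139 (minus, Cxcl10) and chr1:131279564-131279813 (minus, Ikbke).
Rsad2: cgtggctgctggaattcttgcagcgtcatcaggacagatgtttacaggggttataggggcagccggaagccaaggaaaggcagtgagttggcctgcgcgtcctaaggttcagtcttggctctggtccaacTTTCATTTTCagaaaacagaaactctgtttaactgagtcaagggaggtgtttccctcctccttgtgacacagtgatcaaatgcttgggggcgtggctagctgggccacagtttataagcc
Ifit1: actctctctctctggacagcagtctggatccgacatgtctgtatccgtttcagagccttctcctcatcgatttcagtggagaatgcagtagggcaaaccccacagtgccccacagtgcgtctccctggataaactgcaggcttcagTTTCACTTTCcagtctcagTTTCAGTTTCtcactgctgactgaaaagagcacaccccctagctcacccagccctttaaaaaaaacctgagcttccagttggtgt
Isg15: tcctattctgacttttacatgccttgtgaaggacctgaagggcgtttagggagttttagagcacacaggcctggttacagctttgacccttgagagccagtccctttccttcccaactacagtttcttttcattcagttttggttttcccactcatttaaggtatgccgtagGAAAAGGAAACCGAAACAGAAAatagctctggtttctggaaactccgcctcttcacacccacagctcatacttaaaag
Socs1: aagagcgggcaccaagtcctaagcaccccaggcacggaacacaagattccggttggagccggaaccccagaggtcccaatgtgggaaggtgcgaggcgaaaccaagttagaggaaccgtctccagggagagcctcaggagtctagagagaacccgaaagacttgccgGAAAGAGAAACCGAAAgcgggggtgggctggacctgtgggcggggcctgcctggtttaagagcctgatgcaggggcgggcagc
Tgtp2: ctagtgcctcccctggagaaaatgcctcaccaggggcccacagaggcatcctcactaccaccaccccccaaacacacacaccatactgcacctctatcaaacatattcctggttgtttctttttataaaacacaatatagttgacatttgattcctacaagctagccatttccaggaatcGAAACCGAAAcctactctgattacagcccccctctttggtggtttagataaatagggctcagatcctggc
Cxcl10: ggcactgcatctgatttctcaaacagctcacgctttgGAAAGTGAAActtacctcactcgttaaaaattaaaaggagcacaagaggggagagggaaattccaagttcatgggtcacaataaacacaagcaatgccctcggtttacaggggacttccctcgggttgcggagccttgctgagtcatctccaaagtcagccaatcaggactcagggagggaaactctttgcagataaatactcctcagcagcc
Ikbke: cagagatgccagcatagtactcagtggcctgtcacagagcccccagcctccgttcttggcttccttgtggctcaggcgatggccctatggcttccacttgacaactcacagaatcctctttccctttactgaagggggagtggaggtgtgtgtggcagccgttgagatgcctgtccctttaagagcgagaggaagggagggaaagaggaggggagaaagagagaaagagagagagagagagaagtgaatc
The matches begin 120 bases before the start in Rsad2, 104 and 85 in Ifit1, 70 in Tgtp2 and 213 in Cxcl10. Isg15 holds 3 overlapping matches at 78, 72 and 66 bases and Socs1 holds 2 overlapping ones at 83 and 77. Of 27025 genes with a RefSeq promoter, 1079 (3.99%) hold at least 1 such match between 250 bases before and 50 after a start. The genes shown cannot be set against this share, because they were chosen with their matches known. Acod1, Ccl12 and Casp4, which also rose, hold 0 matches in the 250 bases before their starts. A match is a description of the letters and not a measured binding site, and the absence of one in the Ikbke window says only that these letters do not stand there. Promoters were found for 10782 of the 14626 genes tested (73.7%), and match shares were not compared between gene groups.

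Interferon-inducible GTPases, the guanylate-binding proteins (GBPs) and immunity-related GTPases that attack the vacuoles of intracellular pathogens, held the largest changes as a list: 20 of 20 members tested rose (of 21 listed; Gvin1 had 1 read), with a median log2 fold change of 5.20. With genes at 0 reads in the controls placed at their bound, the median was 5.11. Summed over the list, levels went from between 225 and 592 CPM to between 3784 and 6292 CPM. Iigp1 was measured at 0.452, 0.181 and 0.956 CPM in unstimulated and 228, 304 and 85.1 CPM in IFNa libraries (log2 fold change 8.68 ± 1.11, adjusted p = 0.000169). Gbp5 was measured at 1.29, 1.57 and 6.02 and 337, 435 and 207 CPM (6.85 ± 0.60, adjusted p = 7.67e-06), and Gbp4 at 0.839, 0.422 and 3.15 and 143, 201 and 77.4 CPM (6.83 ± 1.01, adjusted p = 0.000462). Each of these 3 genes was below 2 CPM in unstimulated replicates 1 and 2 and, among treated libraries, lowest in IFNa replicate 3, with no overlap. Leaving out 1 library gave 9.35 for Iigp1 (without IFNa replicate 3), 7.79 for Gbp5 and 7.70 for Gbp4 (both without unstimulated replicate 3), and with limma-voom the Iigp1 call was lost (adjusted p = 0.0984).

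Tgtp1 had 0 reads in all 3 controls and 9.24, 13.2 and 7.71 CPM with IFNa, which makes it at least 168-fold higher against a floor of 3 counts over the control group. Gbp11 likewise had 0 control reads and was at least 21.9-fold higher, and Gbp10 had a ratio of 42.7 (95% counting interval 11.4 to 359). These bounds cover counting error only. Tgtp1 and Tgtp2 are nearly identical copies, as are Gbp6 and Gbp10, so their separate values are uncertain. Tgtp2 rose from 0.710, 0.483 and 1.63 to 74.7, 97.9 and 59.9 CPM (6.52 ± 0.82, adjusted p = 0.000134). Olfr56, annotated as an odorant receptor, spans Tgtp1, Tgtp2 and Ifi47 on chromosome 11, so its reads may be theirs. It was among the 10 largest rises (6.35 ± 0.53) of called genes without overlap above a mean of 2 log2 CPM, predicted genes left out. The smallest rises of the list were those of Irgm1 (2.69 ± 0.36) and Irgm2 (3.17 ± 0.45), which started from higher control levels (100.1, 116 and 248 CPM for Irgm1).

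**Figure D2:**
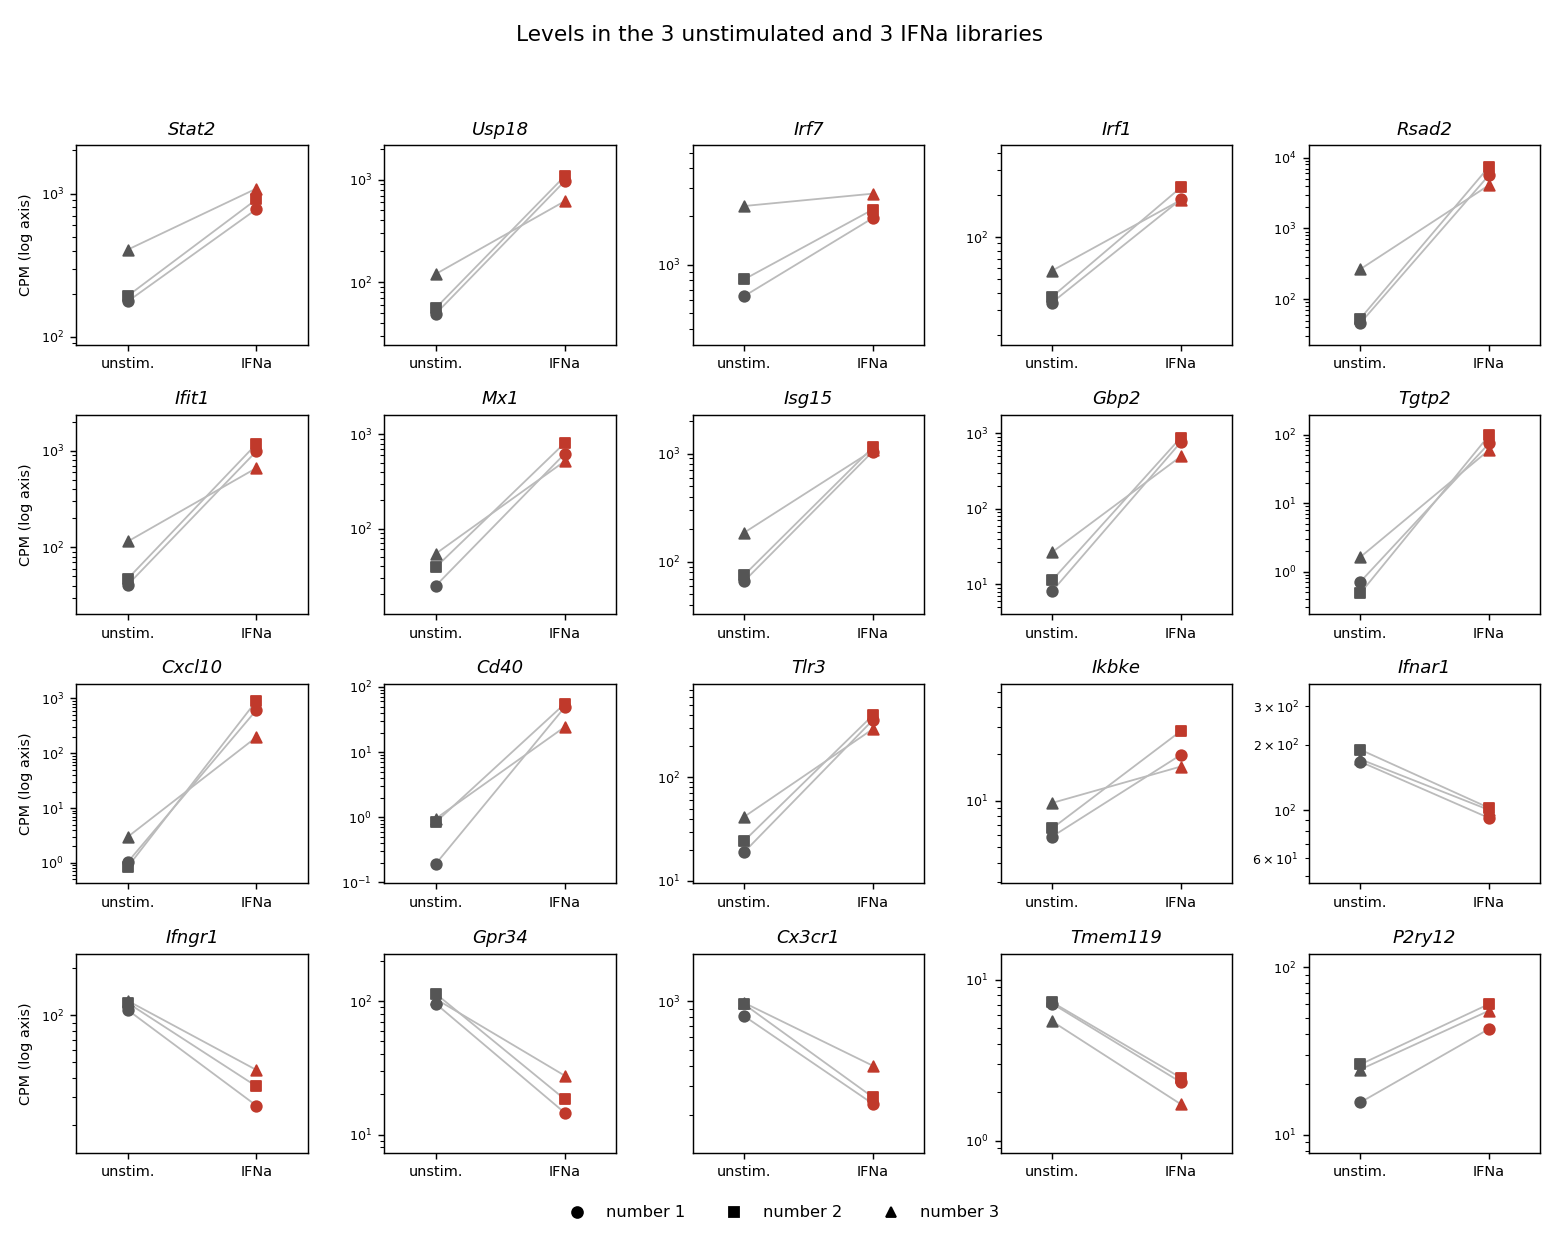
Levels (CPM, log axis) of 20 genes in the 3 unstimulated (grey) and 3 IFNa (red) libraries, with lines joining equal replicate numbers. The groups do not overlap except for Irf7, where unstimulated replicate 3 (triangle) reached 2321 CPM, and Ifnar1, Ifngr1, Gpr34, Cx3cr1 and Tmem119 fall while the others rise.

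Nucleic acid sensors and their adaptors rose in 25 of 28 members tested, and 1 fell (median log2 fold change 2.57). The cytosolic RNA sensors were all higher: Ifih1, or MDA5, went from 76.1, 87.1 and 173 to 1381, 1661 and 1032 CPM (3.73 ± 0.45, adjusted p = 9.05e-05), and Ddx58, or RIG-I, from 70.5, 89.7 and 191 to 631, 778 and 633 CPM (2.71 ± 0.38, adjusted p = 0.000281). Their shared adaptor Mavs was the member that fell, from 32.3, 35.0 and 42.7 to 23.1, 20.4 and 33.0 CPM, by 0.54 ± 0.13 (adjusted p = 0.00329), with IFNa replicate 3 overlapping the controls, and without the block it was not called. Of the endosomal receptors, Tlr3 for double-stranded RNA (3.75 ± 0.42) and Tlr9 for unmethylated DNA (3.25 ± 0.16) rose, as did Tlr7 for single-stranded RNA (0.78 ± 0.13), and Tlr8 and Tlr13 were not called. The DNA sensor Cgas rose by 1.53 ± 0.17 and its adaptor Tmem173, or STING, by 1.31 ± 0.32 (adjusted p = 0.00924). Ifi213, a PYHIN gene, had 3 control reads and 19.7, 23.7 and 12.1 CPM with IFNa, a ratio of 311 (95% counting interval 106 to 1510). Ifi206 rose from 0.0646, 0.121 and 2.59 to 41.8, 58.4 and 54.5 CPM (6.29 ± 0.88) and Ifi205 from 0.839, 0.483 and 12.21 to 160.3, 189.5 and 184 CPM (5.88 ± 0.76). For both, unstimulated replicate 3 held most of the control signal. Without it the log2 fold changes were 8.59 for Ifi206, 7.73 for Ifi205 and 8.82 for Ifi213, and in a fit of the 6 libraries alone Ifi205 missed the threshold (adjusted p = 0.0565). PYHIN genes share sequence, so reads could be split among them, and Trex1, listed at 0 reads, was not tested.

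Ikbke, the gene in the series title, encodes IKK epsilon, a kinase that acts beside Tbk1 in inducing interferons. It lies on chromosome 1 at 131254343 to 131279606 (mm10, minus strand) and was measured at 5.87, 6.64 and 9.67 CPM in unstimulated and 19.7, 28.1 and 16.6 CPM in IFNa libraries. All 3 IFNa libraries lay above all 3 controls, and replicate 3 had both the highest control and the lowest treated value (log2 fold change 1.56 ± 0.20, adjusted p = 1.9e-05). Group means over the neonatal experiment ran from 7.40 ± 2.01 CPM (SD, n = 3) in unstimulated cells through 15.6 ± 4.57 with IL6, 21.5 ± 5.94 with IFNa, 43.0 ± 1.32 with IFNg and 192 ± 29.4 with TNFa to 278 ± 42.6 with the mixture. The IL6 and IFNa groups overlap within their SDs. Ikbke was lower with IFNa than with IFNg by 1.00 ± 0.18 on the log2 scale (adjusted p = 0.0014) and higher with the mixture than with IFNa by 3.68 ± 0.19 (adjusted p = 3.14e-09).

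Of the 14 genes of the TBK1-IKK epsilon axis 9 rose and 0 fell (median log2 fold change 0.54). Azi2, an adaptor that binds both kinases, rose from 43.8, 59.4 and 74.9 to 182, 215 and 184 CPM (1.74 ± 0.17, adjusted p = 8.21e-07) and the autophagy receptor Optn from 22.01, 26.8 and 16.8 to 54.3, 61.0 and 60.0 CPM (1.44 ± 0.14, adjusted p = 3.63e-07). The adaptor Tank rose by 1.24 ± 0.17 and Tbk1 itself by 0.62 ± 0.13 (adjusted p = 0.00181). Traf3, Tradd, Ripk1, Tnip1 and Dok3 did not pass the test. None of the 8 interferon genes listed was tested: Ifnb1 had 5 reads over the 6 libraries, and the remaining 7 were listed at 0.

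Chemokine genes rose in 11 of 21 members and fell in 0 (median log2 fold change 2.19). Cxcl10, a ligand of Cxcr3 that attracts T cells, was measured at 1.03, 0.845 and 2.98 CPM in unstimulated and 616, 907 and 197 CPM in IFNa libraries (8.55 ± 1.00, adjusted p = 8.82e-05, and 9.22 without IFNa replicate 3). This was the second largest rise of called genes without overlap above the level set for naming, predicted genes left out. Cxcl9, a ligand of the same receptor, had reads in unstimulated replicate 3 alone (0, 0 and 0.338 CPM) and reached 39.1, 60.8 and 7.12 CPM (7.96 ± 1.30, adjusted p = 0.000921). Without that control library the remaining controls were at 0 and the fitted Cxcl9 value was 12.25, and its call was lost with limma-voom (adjusted p = 0.387) and without replicate 1 in every group (adjusted p = 0.0627). Of the monocyte attractants, Ccl12 went from 0.516, 0.483 and 1.74 to 163, 195 and 55.9 CPM (7.13 ± 0.67, adjusted p = 1.37e-05, and 8.15 without unstimulated replicate 3). Ccl2 rose by 3.56 ± 0.46 and Ccl7 by 3.24 ± 0.54, and Ccl2 and Ccl12 are similar in sequence. Of the macrophage inflammatory proteins, Ccl3 went from 65.3, 91.9 and 70.2 to 423, 528 and 168 CPM and Ccl4 from 45.8, 65.2 and 60.6 to 473, 569.6 and 215 CPM (2.19 ± 0.24 and 2.77 ± 0.26 on the log2 scale). In every chemokine given here with its 3 values the IFNa libraries lay above the controls and replicate 3 had the lowest level with IFNa. The neutrophil attractants Cxcl1, Cxcl2 and Cxcl3 did not pass the test.

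Among 36 cytokine and receptor genes tested (of 38 listed), 20 rose and 1 fell (median log2 fold change 0.95). Tnfsf10, the death ligand TRAIL, was measured at 2.91, 4.89 and 12.5 CPM without and 281, 379.7 and 137 CPM with IFNa (5.57 ± 0.77, adjusted p = 0.00029, and 6.17 without IFNa replicate 3). Il15, which sustains NK and memory T cells, rose from 6.58, 7.42 and 6.24 to 60.3, 74.9 and 30.2 CPM (3.04 ± 0.47, adjusted p = 0.000471), and its presenting receptor Il15ra by 2.74 ± 0.52. Il18 rose by 2.18 ± 0.14, its inhibitor Il18bp by 0.90 ± 0.20, Il27 by 4.40 ± 0.60 and Tnf by 2.89 ± 0.29. Il6 and Il10 had 0 control reads and at most 0.865 and 0.807 CPM with IFNa, at least 9.49-fold and 11.7-fold higher. Neither call held without replicate 1 in every group (adjusted p = 0.116 and 0.1), and that of Il10 was also lost without unstimulated replicate 3 (adjusted p = 0.067). Without IFNa replicate 2 their log2 fold changes were 5.34 (Il6) and 6.15 (Il10), against 6.06 and 6.77 with all libraries. The member that fell was Ifngr1, the ligand-binding chain of the IFNg receptor, from 108, 120.1 and 124 to 26.5, 35.2 and 44.8 CPM, by 1.75 ± 0.15 (adjusted p = 7.76e-08) with no overlap, while its partner Ifngr2 gave 0.01 ± 0.10.

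MHC class I genes and the machinery that cuts and loads their peptides rose in 15 of 20 members and fell in 0 (median log2 fold change 1.28; 10 rose without the replicate block). The peptide transporter Tap1 went from 50.2, 63.6 and 109.9 to 579.9, 650.1 and 463 CPM (3.03 ± 0.34, adjusted p = 4.07e-05), the loading gene Tapbpl from 11.9, 10.3 and 14.7 to 52.7, 58.8 and 67.4 CPM (2.28 ± 0.15, adjusted p = 4.26e-09) and the immunoproteasome subunit Psmb9 from 33.4, 35.7 and 61.8 to 192, 221 and 202 CPM (2.27 ± 0.16, adjusted p = 1.77e-08). The groups did not overlap for any of the 3. The classical heavy chains did not pass the test: H2-K1 gave 0.34 ± 0.12 (adjusted p = 0.0519) and H2-D1 0.14 ± 0.12 (adjusted p = 0.489), and their shared light chain B2m gave 0.27 ± 0.11 (adjusted p = 0.0827). H2 genes are polymorphic and alike, so alignment to another strain's reference may lose or share their reads.

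MHC class II genes, which present extracellular peptides to helper T cells, had 1 member of 12 that rose and 0 that fell (median log2 fold change -0.02). The shares over all genes tested were 14.31% and 11.07%. Cd74, the invariant chain, was measured at 21.6, 30.1 and 26.9 CPM without and 24.3, 29.0 and 24.95 CPM with IFNa (0.00 ± 0.16, adjusted p = 0.998). The heavy and light chain genes H2-Aa, H2-Ab1 and H2-Eb1 stayed below 2 CPM in all 6 libraries, and the transactivator Ciita had reads in unstimulated replicate 3 alone. The member that rose, H2-Oa, was low as well (0.775, 0 and 0.281 and 3.61, 3.19 and 1.84 CPM; 3.01 ± 0.63, adjusted p = 0.00172, and 4.25 without unstimulated replicate 1).

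Of 18 costimulatory and checkpoint molecules tested 14 rose and 2 fell (median log2 fold change 1.16), and without the replicate block 7 rose and 1 fell. Cd69, an early activation antigen, went from 0.646, 0.362 and 1.52 to 159, 196 and 42.1 CPM (7.23 ± 0.82, adjusted p = 6.25e-05, and 8.05 without unstimulated replicate 3), and Cd40, the receptor for T cell help, from 0.194, 0.845 and 0.956 to 48.6, 55.0 and 24.3 CPM (5.95 ± 0.49, adjusted p = 2.48e-06). Both were under 2 CPM in every control and lowest in replicate 3 among the IFNa libraries. Ms4a4c stood at 9.88, 9.47 and 61.6 CPM without and 131, 163 and 335 CPM with IFNa (3.47 ± 0.50, adjusted p = 0.000366), highest in replicate 3 of both groups, and its call was lost without the block (adjusted p = 0.12). Cd274, or PD-L1, rose by 2.59 ± 0.32 and Cd86 by 1.05 ± 0.24. The checkpoint gene Vsir, or VISTA, fell from 349, 461 and 445 to 105, 126 and 182 CPM, by 1.61 ± 0.17 (adjusted p = 2.1e-06), and Havcr2, or TIM-3, fell by 0.70 ± 0.22 (adjusted p = 0.0255).

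Cell death genes rose in 14 of 20 members and fell in 0 (median log2 fold change 1.06). Mlkl, the effector of necroptosis, went from 8.97, 6.88 and 17.6 to 85.5, 98.8 and 99.5 CPM (3.19 ± 0.35, adjusted p = 2.53e-05), and Casp4, the caspase that senses bacterial lipopolysaccharide in the cytosol, from 11.9, 18.34 and 14.7 to 131, 170.2 and 86.3 CPM (3.09 ± 0.19, adjusted p = 1.24e-08). Daxx rose from 47.7, 57.0 and 102 to 422, 519 and 312 CPM (2.71 ± 0.33, adjusted p = 6.5e-05). In all 3 genes every IFNa library lay above every control. The kinase Ripk3, which activates Mlkl, was not called (0.60 ± 0.24, adjusted p = 0.0882), whereas Casp1 and Gsdmd of pyroptosis rose by 1.53 ± 0.12 and 1.07 ± 0.11. Mcl1 and Bcl2l1, which code for anti-apoptotic proteins, rose by 1.02 ± 0.12 and 1.06 ± 0.11. Fas, the gene mutated by lpr, was near the detection limit at 1.29, 0.181 and 0.675 CPM without and 0.533, 0 and 0.220 CPM with IFNa, and did not pass the test (-1.48 ± 0.77, adjusted p = 0.187, and -2.25 without IFNa replicate 1).

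NF-kappaB subunits, inhibitors and targets rose in 13 of 20 members and fell in 1 (median log2 fold change 0.93). Nfkb1 rose by 1.14 ± 0.11, Relb by 1.04 ± 0.11 and the inhibitor Nfkbia by 1.27 ± 0.14, while Rela did not pass the test (0.05 ± 0.09). Nos2, the inducible nitric oxide synthase, had 0 control reads and 1.78, 3.13 and 1.91 CPM with IFNa, at least 37.6-fold higher (fitted log2 fold change 8.37, and 9.08 without IFNa replicate 3). Gadd45b rose from 24.7, 21.5 and 11.8 to 62.6, 63.2 and 26.7 CPM (1.37 ± 0.13, adjusted p = 5.28e-07). Traf1 was called at 2.15 ± 0.73 (adjusted p = 0.0441) from levels under 2 CPM, and the call was lost under 9 of the alternatives, among them limma-voom (adjusted p = 0.0577) and leaving out unstimulated replicate 3 (adjusted p = 0.19). Of 14 STAT3 targets 5 rose and 0 fell (median 0.48): Pim1 went from 24.7, 20.4 and 25.3 to 120.3, 142 and 57.8 CPM (2.18 ± 0.32, adjusted p = 0.000262), and Junb and Cebpb rose by 1.32 ± 0.11 and 0.93 ± 0.13.

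**Figure D3:**
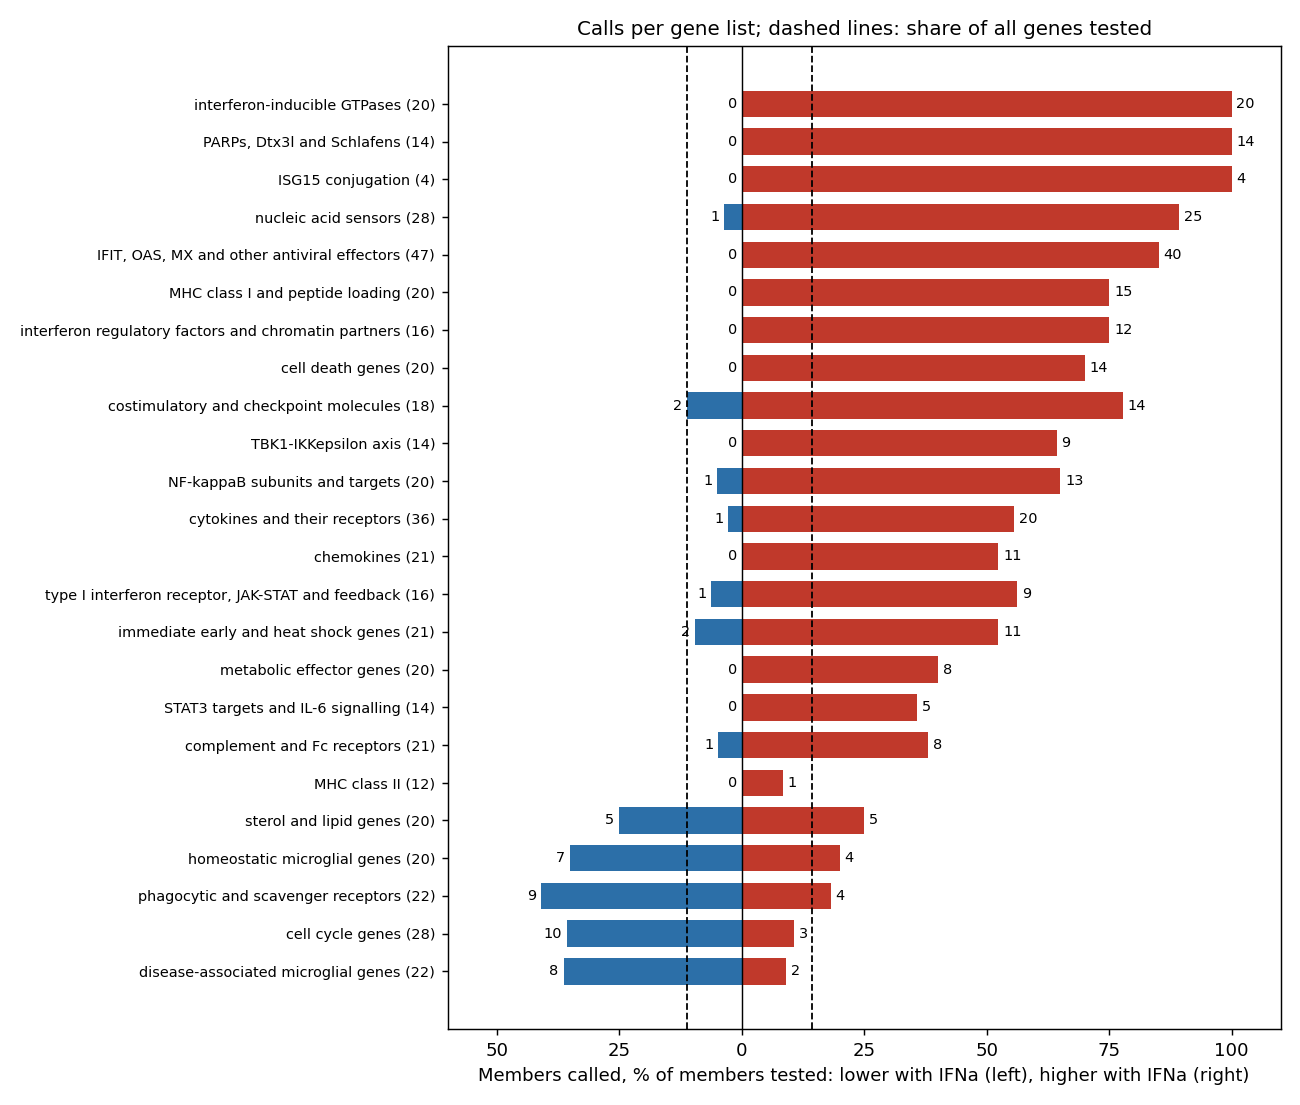
For each of 24 gene lists, the bars give the percent of tested members that were lower (left) or higher (right) with IFNa, with the number of members at each bar and of members tested in brackets; dashed lines mark the 11.07% and 14.31% of all genes tested. The interferon effector lists exceed the right line, and the 5 lowest bars hold lists in which as many or more members fell as rose.

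Of 20 genes of homeostatic microglia 7 fell and 4 rose (median log2 fold change -0.21), against 11.07% and 14.31% of all genes tested. Gpr34, a receptor for lysophosphatidylserine, fell from 95.6, 114 and 104 to 14.6, 18.4 and 27.7 CPM, by 2.42 ± 0.18 (adjusted p = 3.74e-08). Cx3cr1, the receptor for neuronal fractalkine, fell from 811, 959 and 977 to 235, 258 and 402 CPM, by 1.62 ± 0.31 (adjusted p = 0.00227, and 0.0512 without replicate 1 in every group), and Tmem119 from 7.10, 7.24 and 5.51 to 2.31, 2.46 and 1.69 CPM, by 1.62 ± 0.32 (adjusted p = 0.000771). No IFNa library overlapped the controls in these 3 genes. P2ry12, the ADP receptor of microglial processes, went the other way, from 15.6, 26.2 and 24.5 to 42.8, 60.2 and 55.0 CPM (1.26 ± 0.17, adjusted p = 1.88e-05), as did P2ry13 (1.38 ± 0.35), the factor Sall1 (0.71 ± 0.14) and Selplg (0.48 ± 0.09). The TGF-beta receptor chains Tgfbr1 and Tgfbr2 fell by 0.96 ± 0.16 and 0.55 ± 0.12, and Mef2c by 0.64 ± 0.13. Trem2, Olfml3 and Fcrls did not pass the test. Scaled by total counts 11 members fell, and without the block 5 fell.

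Of 22 disease-associated microglial genes 8 fell and 2 rose (median log2 fold change -0.29), against 11.07% and 14.31% of all genes tested. The count depends on the fit: 0 fell and 0 rose without the replicate block, 5 fell without unstimulated replicate 3, and 18 fell when scaled by total counts. The falls were small. Igf1, a growth factor, went from 967, 1333 and 1540 to 697, 836 and 1051 CPM, by 0.57 ± 0.10 (adjusted p = 0.000262, and 0.069 without the block). Axl, a receptor that binds apoptotic cells through Gas6, rose from 255, 266 and 706 to 747, 804 and 1430 CPM (1.39 ± 0.12, adjusted p = 9.51e-08, and 0.131 without the block), with replicate 3 highest in both groups and IFNa replicates 1 and 2 above all controls. Cst7 was called at 1.74 ± 0.58 (adjusted p = 0.0422) from levels under 3 CPM and missed the threshold in 10 alternatives, including each IFNa library left out. Apoe was not called and followed the replicate number, with 9727, 11110 and 2194 CPM without and 7679, 7782 and 1786 CPM with IFNa.

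Among 21 listed genes for complement and Fc receptors, 8 rose and 1 fell (median log2 fold change 0.23), against 14.31% and 11.07% of all genes tested. Fcgr1, the high-affinity IgG receptor, went from 291, 342 and 698 to 1622, 1847 and 1950 CPM (2.15 ± 0.22, adjusted p = 1.11e-05) and Fcgr4 from 36.2, 45.6 and 99.8 to 209.7, 252 and 319 CPM (2.23 ± 0.23, adjusted p = 7.1e-06), both without overlap. The inhibitory receptor Fcgr2b and the receptor Fcgr3 did not pass the test (-0.52 ± 0.19 and 0.07 ± 0.19). C1qb rose by 0.46 ± 0.08, and C3 and C4b by 1.13 ± 0.27 and 1.29 ± 0.26. Serping1, the C1 inhibitor, was called at 2.51 ± 0.70 (adjusted p = 0.0194), but its value was 1.72 without IFNa replicate 2 and its call was then lost (adjusted p = 0.0839), as it was without unstimulated replicate 2 or 3 and with limma-voom (adjusted p = 0.0879, 0.0799 and 0.208) and without replicate 1 in every group (adjusted p = 0.137).

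Phagocytic and scavenger receptors fell in 9 of 22 members and rose in 4 (median log2 fold change -0.08), against 11.07% and 14.31% of all genes tested. Without the block 4 fell. The falls included the scavenger receptors Stab1 (1181, 1468 and 1340 to 830.2, 975 and 864 CPM, by 0.58 ± 0.09, adjusted p = 0.000105), Cd36 (by 0.36 ± 0.10) and Mrc1 (by 0.45 ± 0.09), and the bridging ligand Gas6 (by 0.38 ± 0.09). Stab1 and Mrc1 are also 2 of the 3 border macrophage markers that fell, the other being Clec4n (by 0.67 ± 0.20). Cd300lf rose from 53.6, 61.4 and 78.2 to 294, 363 and 279 CPM (2.29 ± 0.17, adjusted p = 5.52e-08), and the formyl peptide receptor Fpr2 from 2.91, 1.75 and 2.98 to 9.90, 10.5 and 10.5 CPM (2.07 ± 0.41, adjusted p = 0.00152). Timd4, a phosphatidylserine receptor, reached no more than 5.87 CPM (3.55 ± 0.68, adjusted p = 0.00113; 4.52 without unstimulated replicate 3, and adjusted p = 0.0573 in a fit of the 6 libraries).

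Sterol and lipid genes split 5 up and 5 down among 20 (median log2 fold change 0.01), against 14.31% and 11.07% of all genes tested. Without the block 2 fell. Ch25h, which makes the antiviral 25-hydroxycholesterol, went from 4.07, 2.29 and 1.07 to 38.7, 44.9 and 5.87 CPM (3.54 ± 0.67, adjusted p = 0.00246, and 0.0637 without replicate 1 in every group), with IFNa replicate 3 closest to the controls. The cholesterol synthesis genes Sqle, Dhcr7 and Cyp51 fell, by 0.72 ± 0.13, 0.40 ± 0.13 and 0.34 ± 0.12, whereas Hmgcs1 and Fdft1 were not called. The cholesterol exporter Abcg1 rose by 1.68 ± 0.17. The near-identical pair Apol9a and Apol9b rose by 4.35 ± 0.97 and 3.87 ± 0.75. Apol9a gave 5.08 without unstimulated replicate 1, and Apol9b lost its call without the block (adjusted p = 0.0779) and without replicate 1 in every group (adjusted p = 0.0538).

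Of 20 metabolic effector genes tested 8 rose and 0 fell (median log2 fold change 0.21). Acod1, which makes the antimicrobial metabolite itaconate, was measured at 1.94, 0.664 and 3.32 CPM in unstimulated and 210.4, 299 and 98.2 CPM in IFNa libraries (6.76 ± 0.64, adjusted p = 1.62e-05). Gch1, the first enzyme of tetrahydrobiopterin synthesis, went from 30.7, 36.02 and 49.0 to 261, 307 and 217 CPM (2.79 ± 0.22, adjusted p = 3.82e-07) and Nampt, of NAD salvage, from 129, 164 and 183 to 766, 925 and 599 CPM (2.28 ± 0.23, adjusted p = 6.08e-06). In each of the 3 every IFNa library lay above every control. Of glycolysis, Pfkfb3 rose by 1.56 ± 0.16 and Ldha by 0.51 ± 0.08, while Hk2, Pkm and Pgk1 did not pass the test.

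Cell cycle genes fell in 10 of 28 members and rose in 3 (median log2 fold change -0.35), against 11.07% and 14.31% of all genes tested. In other fits 4 fell without the block, 4 without replicate 1 in every group and 17 when scaled by total counts. The replication helicase genes Mcm2, Mcm3, Mcm4, Mcm5 and Mcm7 fell by between 0.38 and 0.59 on the log2 scale, whereas the sixth subunit Mcm6 rose from 113, 135 and 149 to 224, 248 and 275 CPM (0.91 ± 0.14, adjusted p = 1e-04). Ccnd1, the cyclin of G1 phase, rose from 151, 149 and 206 to 338, 379 and 577 CPM (1.33 ± 0.16, adjusted p = 1.4e-05), as did the cell cycle inhibitor Cdkn1a (0.91 ± 0.20). Rrm2, a subunit of ribonucleotide reductase, was measured at 36.9 ± 11.5 CPM in unstimulated and 19.4 ± 8.93 CPM in IFNa libraries (mean ± SD, n = 3 each) and fell by 0.97 ± 0.19 (adjusted p = 0.000941, and 0.242 without the block), with an overlap between the groups. The mitotic genes Mki67, Top2a, Ccnb1 and Plk1 did not pass the test.

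Immediate early and heat shock genes, which can also respond to tissue dissociation, rose in 11 of 21 members and fell in 2 (median log2 fold change 0.68). Dnajb1, a co-chaperone, went from 40.4, 39.7 and 54.1 to 96.99, 124 and 111 CPM (1.31 ± 0.10, adjusted p = 4.25e-08), and Atf3 and Jund rose by 0.97 ± 0.13 and 0.92 ± 0.15, while Fos, Jun and Egr1 were not called. Hspa1b was called at 2.97 ± 0.72 (adjusted p = 0.00429, and 3.69 without unstimulated replicate 1), and its near-identical copy Hspa1a was not (1.96 ± 0.77, adjusted p = 0.072). Egr2 fell from 7.29, 6.46 and 6.24 to 1.30, 2.00 and 1.61 CPM, by 2.05 ± 0.54 (adjusted p = 0.0108), and missed the threshold without IFNa replicate 1 or 2 or unstimulated replicate 3 (adjusted p = 0.07, 0.0515 and 0.0533) and without replicate 1 in every group (adjusted p = 0.198).

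The 10 largest falls came mostly from outside the lists. They were taken from called genes above a mean of 2 log2 CPM without overlap between the groups, predicted genes left out. St8sia4, which builds polysialic acid, went from 47.5, 59.1 and 72.8 to 9.30, 8.12 and 9.91 CPM, by 2.69 ± 0.19 (adjusted p = 9.8e-09). S1pr1, a receptor for sphingosine-1-phosphate, went from 131, 183 and 175 to 30.8, 21.03 and 36.8 CPM (by 2.49 ± 0.35, adjusted p = 0.000211), and Gpr183, the receptor for a dihydroxylated oxysterol, from 53.5, 76.6 and 55.6 to 11.3, 12.6 and 12.18 CPM (by 2.35 ± 0.37, adjusted p = 0.000389). Every IFNa library was below every control in these 3 genes, which was a condition of their choice and not a separate result. Dkk2, a Wnt pathway regulator, fell by 2.46 ± 0.30, Rnf150 by 2.36 ± 0.26 and Klhl24 by 2.44 ± 0.28. Fam214a, Susd3 and Sesn1 fell by 2.59 ± 0.47, 2.40 ± 0.32 and 2.38 ± 0.37, and by 3.21, 3.11 and 3.15 without IFNa replicate 3, whose levels lay nearest the controls in all 3.

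The size of the response differed between replicate numbers. Within a number, the log2 ratio of IFNa to unstimulated level, with 0.5 CPM added to both, had a median over the 20 GTPases of 4.67 in number 1, 4.77 in number 2 and 3.00 in number 3, while over all genes tested it was -0.03, -0.03 and -0.01. For the 47 antiviral effectors the medians were 2.44, 2.38 and 1.22, and for the 28 sensors 3.02, 2.94 and 1.66. In number 3 the starting level was higher: unstimulated replicate 3 exceeded both other controls in 43 of 47 antiviral effectors, 28 of 28 sensors and 17 of 20 GTPases, against 5367 of 14626 genes tested. This library was also the highest control in 1349 of all 2093 genes that rose. Their median ratios were 0.95, 1.06 and 0.73 in numbers 1, 2 and 3. For GTPases the level reached was also lower, IFNa replicate 3 being the lowest of the treated libraries in 18 of 20 members. The same held in 5456 of 14626 genes tested and in 876 of the 2093 that rose. Each of these counts rests on 1 library, and list members are not replicates. Both number 3 libraries also held less Apoe, Lyz2 and Cst3 than the other 4 libraries. What set these libraries apart was not tested, and in all 3 numbers the medians of the interferon effector lists were above 0.

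**Figure D4:**
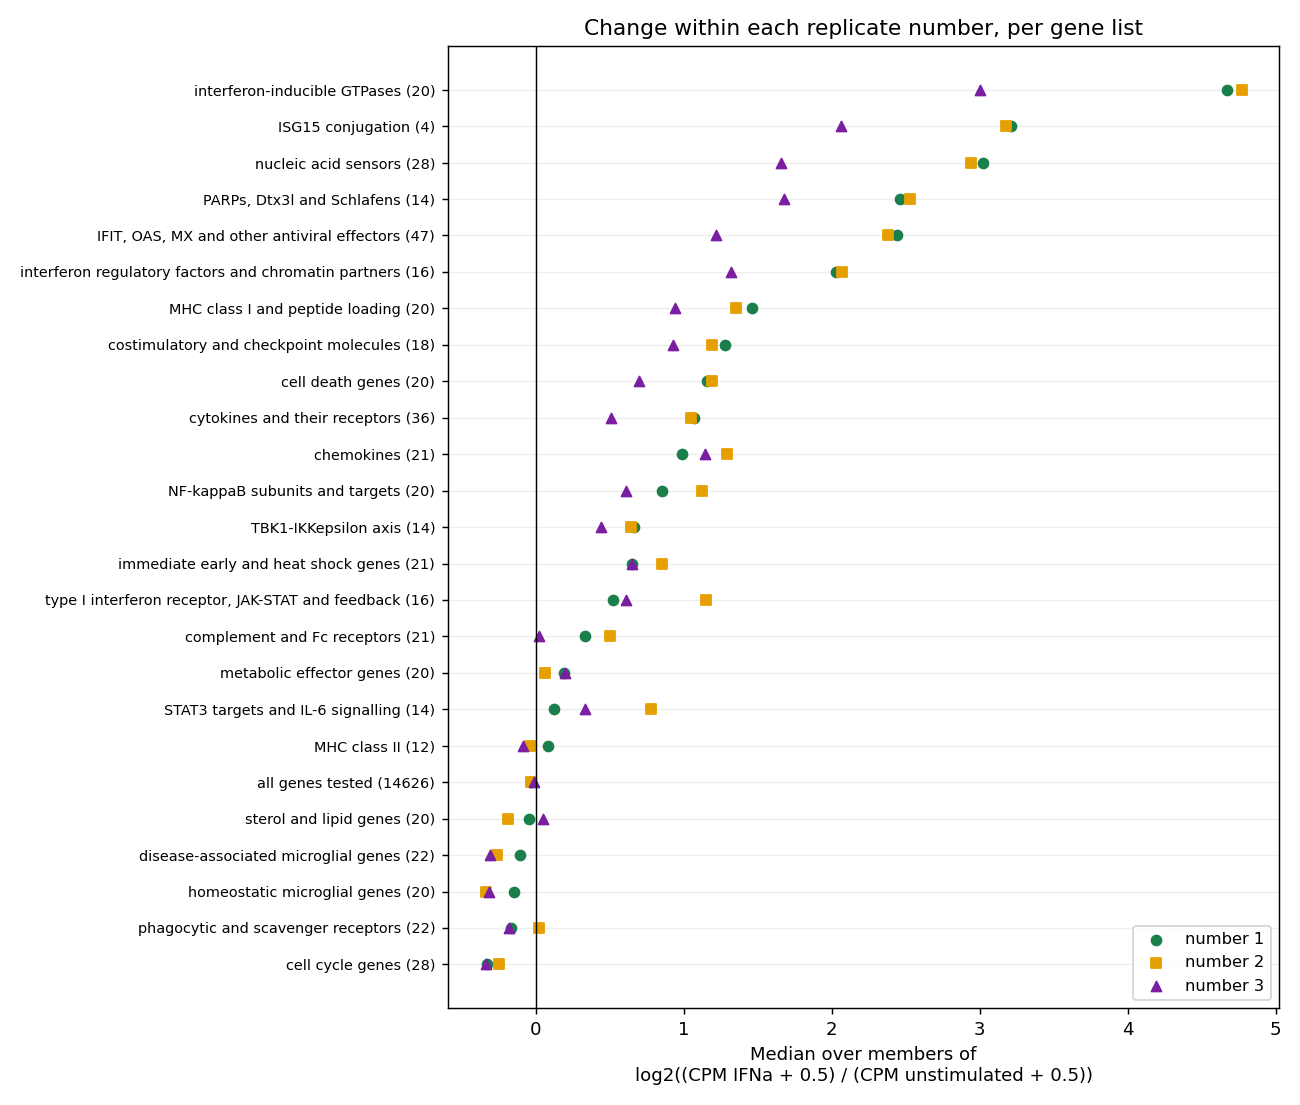
Median over the members of each list of the log2 ratio of IFNa to unstimulated CPM (0.5 added to each), within replicate number 1 (circle), 2 (square) and 3 (triangle). Number 3 lies to the left of the others for the interferon effector lists, at 3.00 against 4.67 and 4.77 for GTPases, and all 3 numbers lie near 0 for all genes tested.

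IFNg serves as the second interferon of the experiment, and 2058 of 14626 genes (14.07%) differed between IFNa and IFNg libraries (edgeR's quasi-likelihood test, adjusted p below 0.05), 952 higher with IFNa (6.51%) and 1106 higher with IFNg (7.56%). Without the replicate block these counts were 345 and 411, without replicate 1 in every group 395 and 313, and without IFNg replicate 2 they were 578 and 645. The antiviral effectors stood higher with IFNa in 27 of 47 members and lower in 1, and the sensors in 14 of 28 and 1. The GTPases stood higher with IFNa in 0 of 20 and lower in 3, namely Gbp2, Gbp2b and Gbp8. Ifit1bl1 reached 407 ± 80.1 CPM (SD, n = 3) with IFNa and 9.74 ± 10.1 with IFNg, a log2 difference of 6.05 ± 0.95 (adjusted p = 0.00167). Ifit3b reached 705 ± 83.3 and 51.8 ± 34.4 CPM (4.05 ± 0.55, adjusted p = 0.000637), Cmpk2 6038 ± 2131 and 529 ± 121 CPM (3.70 ± 0.71, adjusted p = 0.00554), and Rsad2 5723 ± 1676 and 564 ± 259.9 CPM (3.65 ± 0.71, adjusted p = 0.0058). These 4 calls were lost without replicate 1 in every group (adjusted p = 0.105, 0.0565, 0.135 and 0.137), and those of Ifit1bl1, Cmpk2 and Rsad2 also in a fit of the groups compared alone (adjusted p = 0.0982, 0.0629 and 0.0946). Rilpl1 (3.55 ± 0.44) and the Notch ligand Dll1 (3.04 ± 0.31) were also higher with IFNa. Ccl3 was higher with IFNa than with IFNg by 2.91 ± 0.24 on the log2 scale, and Ccl4 by 2.32 ± 0.25.

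Among the feedback inhibitors, Socs1 and Socs3 were higher with IFNg and Usp18 with IFNa. Usp18 was 886 ± 241 CPM with IFNa and 133 ± 31.9 with IFNg (a log2 difference of 2.87 ± 0.50, adjusted p = 0.00288). Socs3 reached 143 ± 32.3 CPM with IFNg and 8.51 ± 4.18 with IFNa (by 4.08 ± 0.53 on the log2 scale, adjusted p = 0.000428), and Socs1 398 ± 74.7 and 34.7 ± 22.1 CPM (by 3.54 ± 0.66, adjusted p = 0.00441). Cxcl9 was 419.9 ± 173 CPM with IFNg and 35.7 ± 27.0 with IFNa (by 3.65 ± 0.70, adjusted p = 0.00535), whereas Cxcl10 did not differ beyond the test (log2 difference, IFNa minus IFNg, -0.23 ± 0.67, adjusted p = 0.887). Ciita, the class II transactivator, was at 14.6 ± 3.94 CPM with IFNg and had 0 reads in all 3 IFNa libraries, and Cd74 was at 49.6 ± 16.4 and 26.1 ± 2.52 CPM (by 0.91 ± 0.16, adjusted p = 0.00071). Of 12 class II genes 4 were higher with IFNg and 0 with IFNa, and of 21 complement and Fc receptor genes 9 and 1. Irf1 was higher with IFNg by 2.65 ± 0.38, Irf8 by 2.09 ± 0.40 and Fcgr3 by 1.39 ± 0.19. Outside the lists, Cdc42ep2 (by 4.53 ± 0.42) and Ralgds (by 3.11 ± 0.39) were higher with IFNg. Egr2, which fell with IFNa, was higher with IFNg by 3.50 ± 0.55 (adjusted p = 0.00058). Without replicate 1 in every group the calls of Socs1, Cxcl9 and Egr2 were lost (adjusted p = 0.142, 0.178 and 0.0819), and that of Socs1 also in a fit of the groups compared alone (adjusted p = 0.0688).

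**Figure D5:**
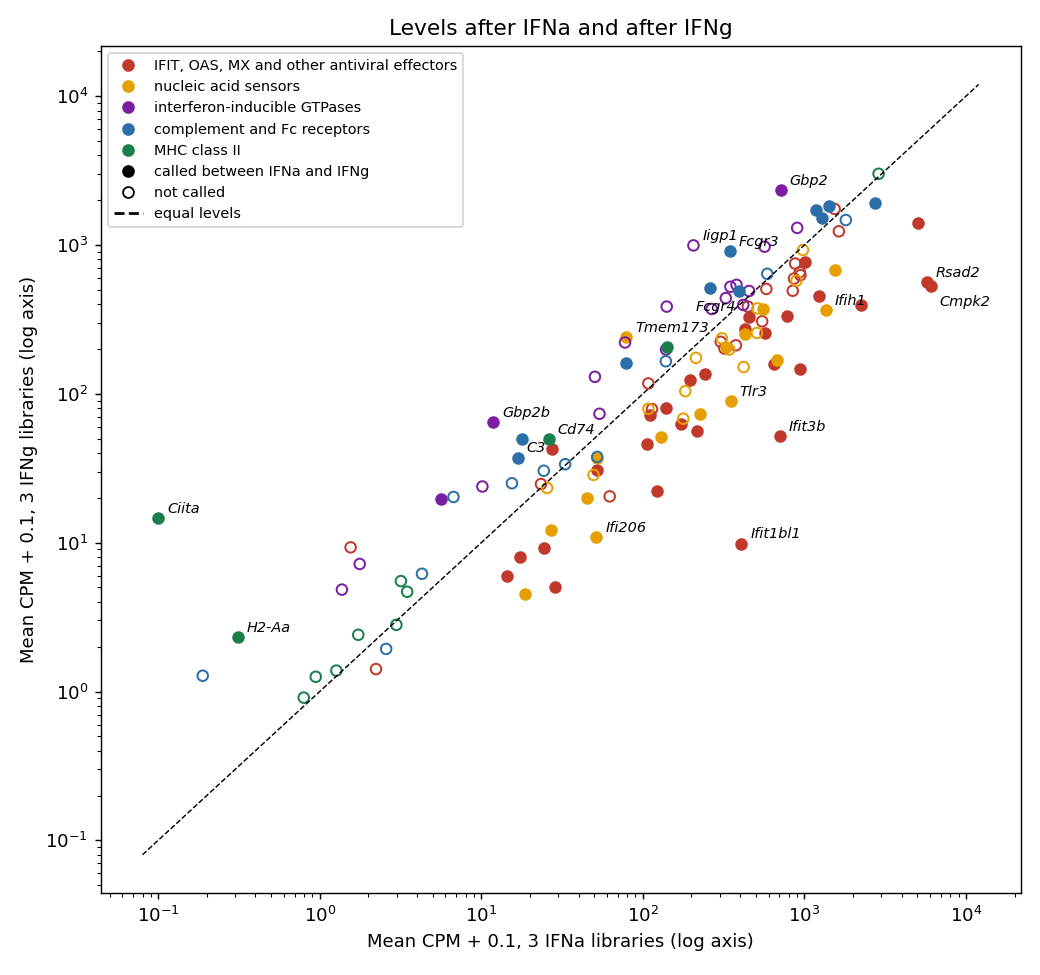
Mean CPM + 0.1 over 3 libraries with IFNa (x, log axis) and with IFNg (y, log axis) for members of 5 lists; filled points are called between both groups, open points are not, and the dashed line marks equal levels. Antiviral effectors such as Ifit1bl1, Ifit3b and Rsad2 lie below the line, and Ciita, H2-Aa and Gbp2 above it.

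The mixture held IFNa together with IFNg, IL6 and TNFa, and 2689 genes (18.39%) differed between mixture and IFNa, 1340 higher with the mixture (9.16%) and 1349 higher with IFNa (9.22%). These counts moved with the fit, to 608 and 553 without the replicate block, to 731 and 3731 when scaled by total counts, and to 848 and 785 without IFNa replicate 3. The antiviral effectors were higher with the mixture in 3 of 47 members and lower in 0, and the GTPases in 8 of 20 and 0. All 20 NF-kappaB genes were higher with the mixture, with 10 of 14 genes of the TBK1-IKK epsilon axis, 12 of 21 chemokines and 14 of 21 complement and Fc receptor genes. Cxcl9 was 35.7 ± 27.0 CPM (SD, n = 3) with IFNa and 1670 ± 900.1 with the mixture (5.84 ± 0.79 on the log2 scale, adjusted p = 0.000518), a call lost in a fit of the groups compared alone (adjusted p = 0.112) and without replicate 1 in every group (adjusted p = 0.0584). Cxcl11 (5.82 ± 0.64), Nos2 (5.81 ± 0.48), Traf1 (5.67 ± 0.44) and Ccl5 (5.11 ± 0.44) were higher with the mixture as well. Isg15, Rsad2 and Ifit1 did not differ beyond the test between mixture and IFNa (0.73 ± 0.31, 0.86 ± 0.64 and 0.57 ± 0.46). Lower with the mixture were the myeloid factor Cebpa (481 ± 187 CPM with IFNa and 48.7 ± 22.3 with the mixture, -3.37 ± 0.39, adjusted p = 0.00014), Baiap2l2 (-2.97 ± 0.33), Zfp395 (-2.60 ± 0.39), Asb10 (-2.54 ± 0.31) and Abcd2 (-2.35 ± 0.20). The homeostatic list was lower with the mixture in 7 of 20 members, Gpr34 and Tmem119 among them, and higher in 1, and the cell cycle list was lower in 10 of 28 and higher in 1.

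Markers of other cells were listed to see what the CD11b selection could have let through. Of 10 NK cell markers 0 passed the filter on low counts, and of 15 T cell markers 5 did, Cd8a and Cd8b1 being at 0 reads and Cd3e at 4 over the 6 libraries. The T cell member that rose, the kinase gene Lck (2.11 ± 0.52, adjusted p = 0.00821), went from 1.49, 0.965 and 1.29 to 6.04, 7.92 and 2.50 CPM. Of 8 B or plasma cell markers 3 were tested and 2 rose, Ighm from 6.39, 15.0 and 5.4 to 26.1, 33.3 and 8.07 CPM (with an overlap between the groups) and Pax5 from 0 reads to 0.948, 0.0666 and 0.954 CPM, while Ms4a1 had 2 reads, and the list summed to between 12.5 and 25.6 CPM without and 14.5 and 38.3 CPM with IFNa. Of 6 dendritic cell markers 2 were tested and Clec9a rose, from 1 read over the controls to 1.19, 0.599 and 1.03 CPM, with Flt3 at 0 reads. Neutrophil markers summed to between 15.2 and 140 CPM in unstimulated and 21.4 and 57.7 CPM in IFNa libraries, with Camp lower after IFNa. Monocyte markers summed to between 48.5 and 76.2 CPM without and 137 and 154 CPM with IFNa, through Plac8 (2.97 ± 0.63) and Itga4 (1.68 ± 0.16), 2 of 10 members that rose. Of the same 10 monocyte markers 1 fell and 7 were not called, with a median log2 fold change of 0.12. Over all genes tested 14.31% rose and 11.07% fell. Astrocyte markers summed to between 42.9 and 378 CPM without and 70.8 and 397 CPM with IFNa and were highest in replicate 1 of both groups, where Gfap reached 109.9 and 92.7 CPM against at most 10.5 CPM elsewhere. Of the endothelial and oligodendrocyte markers, 2 of 7 and 2 of 6 tested rose and 0 fell, with list medians of -0.07 and -0.17: Kdr (5.23, 7.72 and 23.2 to 91.7, 110.3 and 119.5 CPM), Flt1 (6.91, 10.1 and 15.7 to 63.0, 80.4 and 67.2 CPM) and Cnp (43.3, 47.8 and 70.1 to 242, 272 and 287 CPM), and Mag by 0.61 ± 0.20 (adjusted p = 0.0297), while the endothelial genes Cldn5, Pecam1 and Esam were not called and Mog, Mobp and Opalin of oligodendrocytes had 6 reads or fewer. The part of these other cells in the changes above was not tested.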

How the data were processed

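RNA was measured in 24 bulk libraries made with a directional kit. Read trimming with cutadapt 2.1, alignment with STAR 2.7.1a and the build mm10 are named in the submitters' processing notes; how reads were assigned to genes, and whether by strand, is not given in the sources used here. The values used are the counts per gene that the authors deposited, whole numbers without normalization, in a table of 55434 genes, with 28481 detected in any library and 0 mitochondrial. If strand was not used in counting, reads of overlapping genes cannot be told apart.

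The main test was edgeR 4.0.16 (R 4.3.3), a robust quasi-likelihood fit with TMM scaling over the 18 neonatal libraries, with the replicate number as a block (10 residual degrees of freedom, biological coefficient of variation 0.1948) and 14626 genes kept by filterByExpr (lowest count 10). Standard errors are the fold change divided by the root of the F statistic, p-values were adjusted by Benjamini-Hochberg over all genes tested, and genes were called at 0.05. The block was fixed beforehand in the definition of the comparison. In their deviations from the group means 45 of 45 same-numbered pairs correlated over 0.1, although differently numbered pairs reached 0.223. The meaning of the replicate number is absent from the labels. Within the IFNa and within the unstimulated group, no pair of libraries was identical or equal within sampling noise. Other pairs of libraries were not checked. Intervals and floors (3 counts over a group) cover counting error only, and a fold of a gene at 0 reads is a bound.

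Gene lists and members were chosen with earlier results of these data known. The genes named by rule were Ikbke, Fas, Ifnar1 and Ifnar2, the called members of each list with the largest changes, and the largest changes in each comparison. The last were taken from called genes with a mean of at least 2 log2 CPM and no overlap between the groups compared. Predicted genes (Gm and Rik names) were left out of them. Other list members were named after their values were seen, to describe a list. Alternatives were no block, DESeq2 1.42.0, limma-voom (limma 3.58.1), other size factors, total counts, other filters, other sets of libraries and leaving out each library. Dropping replicate 1 from every neonatal group was added after seeing the data, because these libraries stood apart on the second principal component (22.3% of the variance). The statistics were tested on simulated data. Gene coordinates are from GENCODE M21 (99.57% of genes matched) and promoters from RefSeq GRCm38.p6. Some list members are counted here but not reported by name.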

Additional observations from a re-analysis of the deposited data

How the results depend on the processing

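For IFNa against unstimulated microglia, the fit without the replicate block called 2118 genes (1377 higher, 741 lower); for IFNa against IFNg it called 756 (345 higher with IFNa, 411 with IFNg) and for the mixture against IFNa 1161 (608 higher with the mixture, 553 with IFNa). Scaling by total counts gave 3091 genes lower with IFNa than unstimulated, and 4462 between mixture and IFNa (731 higher with the mixture, 3731 with IFNa). A fit of the groups compared alone called 1686 genes between mixture and IFNa, 723 of them higher with IFNa. Without replicate 1 in every neonatal group, a setting chosen after seeing the data, the counts were 2233 called and 810 lower for IFNa against unstimulated, 708 (395 and 313) for IFNa against IFNg, and 1166 (665 and 501) for the mixture against IFNa.

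Leaving out 1 library at a time, the genes called between IFNa and unstimulated ranged from 2779 to 3457, those higher from 1693 to 1995 and those lower from 1072 (without IFNa replicate 1) to 1462. Between IFNa and IFNg the ranges were 1223 (without IFNg replicate 2) to 1821 called, 578 to 928 higher with IFNa and 645 to 893 higher with IFNg. Between mixture and IFNa they were 1633 (without IFNa replicate 3) to 2491 called, 848 to 1455 higher with the mixture and 763 (without mixture replicate 3) to 1113 higher with IFNa. DESeq2, limma-voom, other size factors, no filter, a filter of 1 CPM in 3 libraries and a fit of all 24 libraries kept these counts within 1.5 times. No called gene named by rule changed sign under any alternative run; Ifnar2, which was not called (-0.01), did, reaching 0.02 without IFNa replicate 3. Calls lost by genes named by rule are given or counted beside each gene; the cause was not tested. Genes under about 1 CPM rest on few reads, so a missing call there says little at this depth.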
